A study of Mus musculus with 8 samples.

Results

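Potassium channel genes were described in the cochlea, the hearing organ of the inner ear, on arrays of 8 mice of CBA/CaJ, an inbred strain that keeps good hearing with age. They were the probe sets that the platform annotation assigns to 1 gene alone with a symbol made of Kcn, a family letter or letters, and a number. This gave 167 probe sets of 84 genes, out of 34958 probe sets of 18194 genes with 1 named gene. Of the 84 genes, 3 carry such a symbol but encode no channel protein (Kcnq1ot1, Kcnmb4os1 and Kcnmb4os2). The other 81 are pore-forming and auxiliary subunits. The tissue was all soft tissue of the cochlea, that is spiral ligament, organ of Corti and modiolus, freed from its bony shell after urethane (300 mg/kg) and perfusion of the heart with saline. The ears of each mouse were pooled on 1 array, so the 8 arrays are 8 mice of 1 group, named normal in the labels, with no contrast between groups. The labels name no sex, age or batch.

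Potassium channels let potassium ions cross cell membranes. The cochlea depends on them to an unusual degree, because the fluid that bathes the hair bundles, endolymph, is rich in potassium and carries a positive potential. The stria vascularis secretes potassium into endolymph, hair cells take it up during sound, and channels at their base and in the auditory neurons set how fast each cell recovers. Voltage-gated families (Kcna, Kcnc, Kcnd, Kcnq, Kcnh) shape action potentials, inward rectifiers (Kcnj) set resting potentials, tandem-pore channels (Kcnk) carry leak currents, and calcium-activated channels (Kcnma, Kcnn) link calcium entry to repolarization.

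Every value below is a MAS5 signal, an intensity in arbitrary units on a linear scale, unless a log2 scale is named. Mouse numbers are names without an order. Since probes differ in how well they bind, no gene's signal was set against another's as a level, and each gene was read against background and against itself across mice, by its brightest probe set. For each array the threshold for background lay at the 95th percentile over 129 probe sets of olfactory and vomeronasal receptors and of genes of unrelated organs. It ranged from 68.3 to 108. A gene was called detected when it exceeded the threshold on all 8 arrays. The labelled tissue was checked against markers: 12 of 13 measured genes of fibrocytes, 12 of 13 of supporting cells, 8 of 10 of strial marginal cells, 9 of 14 of strial intermediate cells, 9 of 17 of hair cells and 19 of 24 of neurons were detected, as were 7 of 11 of bone, 12 of 13 of macrophages, 1 of 13 of skeletal muscle and 5 of 13 of the central nervous system. Log2 signals of any 2 arrays had correlations of 0.945 to 0.960 over the probe sets, and probe sets do not count as replicates. With 8 arrays, precision is limited by their number.

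Promoters are shown for 3 members, because the differences between mice described below turn on them: Kcnc1 and Kcna2, which were lowest in mouse 6, and Kcnj10, which was lowest in mouse 1. Each is the RefSeq window of 250 bases before to 50 after the gene's start in build GRCm38.p6, on the plus strand, at chr7:46396218-46396517 for Kcnc1, chr3:107101317-107101616 for Kcna2 and chr1:172340960-172341259 for Kcnj10. Capitals mark the GC box, GGGCGG or its reverse complement.
Kcnc1: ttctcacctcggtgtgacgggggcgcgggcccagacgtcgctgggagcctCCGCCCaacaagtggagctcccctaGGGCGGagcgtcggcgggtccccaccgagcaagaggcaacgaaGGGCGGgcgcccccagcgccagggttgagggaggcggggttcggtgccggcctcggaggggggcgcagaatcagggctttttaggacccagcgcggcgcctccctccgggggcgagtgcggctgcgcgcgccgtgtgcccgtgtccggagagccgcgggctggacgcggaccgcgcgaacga
Kcna2: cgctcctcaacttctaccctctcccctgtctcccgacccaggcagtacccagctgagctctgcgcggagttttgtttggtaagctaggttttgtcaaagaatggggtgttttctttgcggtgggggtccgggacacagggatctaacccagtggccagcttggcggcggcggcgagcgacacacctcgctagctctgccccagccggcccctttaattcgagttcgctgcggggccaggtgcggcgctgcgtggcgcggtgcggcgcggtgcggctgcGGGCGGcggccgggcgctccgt
Kcnj10: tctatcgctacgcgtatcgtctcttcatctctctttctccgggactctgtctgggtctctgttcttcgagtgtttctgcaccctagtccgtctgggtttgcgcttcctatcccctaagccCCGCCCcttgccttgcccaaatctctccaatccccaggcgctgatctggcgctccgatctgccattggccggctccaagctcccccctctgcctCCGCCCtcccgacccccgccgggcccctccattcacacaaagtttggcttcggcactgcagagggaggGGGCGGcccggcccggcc
The GC box occurred 3 times in the window of Kcnc1, 1 time in that of Kcna2 and 3 times in that of Kcnj10. Of all 32851 windows of that length, 35.7% held it on either strand. None of the 3 windows held TATAAA (13.6% of all windows), CACGTG (7.15%) or CATGTG (14.2%), searched on both strands. CG dinucleotides numbered 41, 31 and 21, against a median of 7 over all windows, and G and C made up 74.7%, 66.7% and 63.7% of the bases, against a median of 52.7%. A match is a description of the letters and not of a site in use. Windows were found for 64 of the 84 members.

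Of the 84 genes, 24 were detected (28.6%), 13 exceeded the threshold on some arrays and 47 on none. Over all genes outside the background set 58.9% were detected and 30.6% exceeded it on none. All 7 measured genes of a list of strial and endolymph channels were detected, as were 3 of 7 hair cell channels, 5 of 15 spiral ganglion channels and 6 of 13 channels of vessels, immune cells and other tissues. A further 5 genes of these lists lacked a probe set naming them alone and were not analysed here. By family, detected genes made up 5 of 15 inward rectifiers (Kcnj), 3 of 12 tandem-pore channels (Kcnk), 3 of 7 Kcna, 2 of 3 Kcnc, 1 of 3 Kcnd, 1 of 3 Kcnq, 2 of 4 calcium-activated Kcnn, the 1 Kcnma, 2 of 5 Kcne and 2 of 3 Kcnab genes. None of the 6 Kcnh, 4 Kcnip, 3 Kcnmb, 3 Kcng, 2 Kcnt or 2 Kcnv genes was detected by this rule. The count depends on the threshold, and 33 members were detected with the receptors alone as background, when 65.0% of all genes were.

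**Figure D1:**
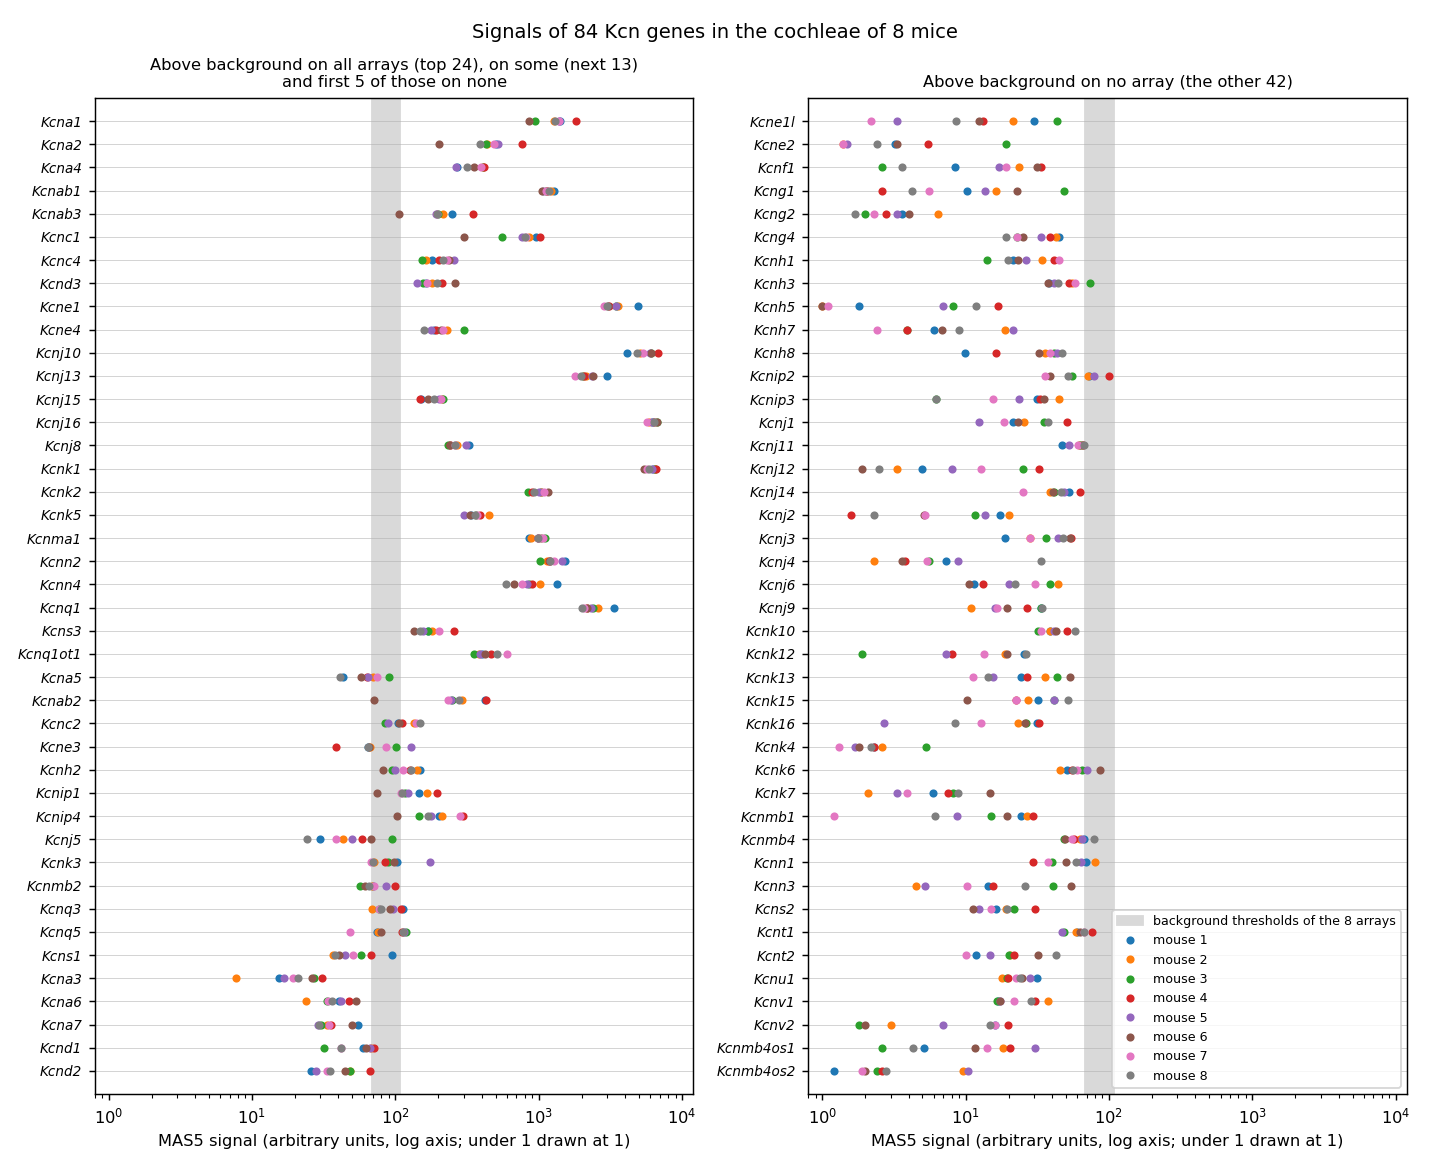
MAS5 signal (horizontal, log axis, arbitrary units) of all 84 Kcn genes in each of 8 mice (1 point a mouse, coloured by mouse), with the range of the arrays' background thresholds (68.3 to 108) in grey. The top 24 genes on the left exceed each array's own threshold on every array (Kcnab3 in mouse 6 lies at the edge of the grey), the next 13 on some, and the remaining 47, on both sides, on none.

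Among channels of the stria vascularis and of the endolymph route, Kcnq1, Kcne1 and Kcnj13 were highest and Kcnj10 was lowest in mouse 1. Mouse 1 was often an extreme: of all detected genes 34.9% were highest and 24.5% lowest in it. Kcnq1 and Kcne1 encode the pore and the auxiliary subunit of the channel through which marginal cells release potassium into endolymph, and loss of either causes hereditary deafness. Kcnq1 measured 2013.5 at the lowest (mouse 8), 2249 at the median and 3372 at the highest (mouse 1). Kcne1 measured 2863 at the lowest (mouse 7), 3277 at the median and 4906.5 at the highest (mouse 1). Mouse 1 thus stood above all others in both genes, at 1.55 times the median of the other mice for Kcnq1 and 1.58 times for Kcne1. The next highest mouse in both was mouse 2, at 2597 and 3565.

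Across the 8 mice the log2 signals of Kcnq1 and Kcne1 had Pearson's r = 0.98 and Spearman's rho = 0.95. The exact permutation p was 0.000223 for r and 0.00114 for rho (two-sided). After Benjamini-Hochberg adjustment over the 10660 detected genes paired with Kcnq1, the exact permutation p was 0.0818 and did not pass 0.05. Without the 2 mice farthest from the median of Kcnq1, r was 0.93, and without mouse 1 it was 0.93. Of 9 listed pairs of subunits that form channels together, 4 had both genes detected and 0 passed. Not passing an adjustment over so many genes does not show that a pair is unrelated.

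The list also holds 4 inward rectifiers. Kcnj10 encodes the channel of strial intermediate cells on which the endocochlear potential depends, and it is also found in glia. It measured 4112.5 at the lowest (mouse 1), 5676 at the median and 6791 at the highest (mouse 4). Mouse 1 was lowest for Kcnj10 at 1.45 times below the median of the other mice, whereas it was highest for Kcnq1 and Kcne1. Kcnj16 encodes a subunit that forms mixed channels with the product of Kcnj10. It measured 5734.5 at the lowest (mouse 7), 6238 at the median and 6645 at the highest (mouse 6). Its SD of log2 signal was 0.08, and 5.33% of detected genes had a smaller one. That SD was 0.05 after quantile normalization and 0.12 after scaling to the median of detected genes. The 2 genes did not pass the partner test, with r = 0.35 and an adjusted exact permutation p of 0.646.

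Kcnj13, an inward rectifier of transporting epithelia, measured 1777 at the lowest (mouse 7), 2100.45 at the median and 2984 at the highest (mouse 1). Its lowest and highest mice were those of the brightest probe set of Kcne1, with which it had r = 0.85 as a description. Kcnj15, a rectifier of the same branch as Kcnj10, was close to background at 149 to 214 with a median of 195. Kcnk1, a tandem-pore channel of the inner ear epithelium, measured 5418 at the lowest (mouse 6), 6227 at the median and 6544 at the highest (mouse 4). Its SD of log2 signal was 0.10. Markers of the strial cells were set beside these channels. The score of 9 intermediate cell markers was 0.16 in mouse 1 and from -0.08 to 0.00 elsewhere, and that of 8 marginal cell markers was 0.04 in mouse 1 and -0.17 to 0.10 in the others. A score is the mean deviation of the detected markers from their mean over mice on the log2 scale. In such bulk tissue fewer cells of a type and less RNA per cell cannot be told apart.

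Kcne1, Kcnq1, Kcnj13 and Kcnn4 were the members with an unadjusted exact permutation p below 0.05 against the intermediate cell score, with r of 0.88, 0.88, 0.83 and 0.75. Their adjusted exact permutation p was 0.337 in each case. These relations rest on mouse 1: without it r was 0.40, 0.43, 0.40 and 0.24, and without the 2 mice farthest from the median score it was -0.07, 0.21, -0.27 and 0.26. Of all detected genes 12.9% had an unadjusted p below 0.05 against this score, and 0% passed after adjustment.

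**Figure D2:**
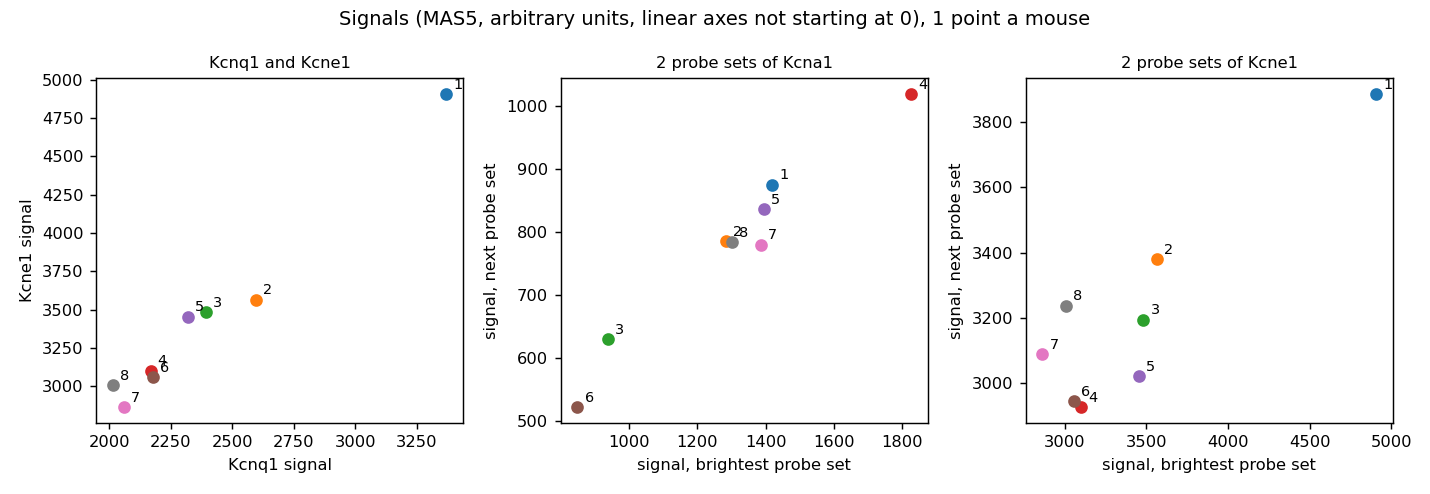
MAS5 signals (arbitrary units, linear axes that do not start at 0) of Kcnq1 against Kcne1, and of the 2 brightest probe sets of Kcna1 and of Kcne1 against each other, 1 numbered point a mouse. Mouse 1 lies apart at the top right for Kcnq1 and Kcne1, while mice 6 and 3 are lowest and mouse 4 highest on both probe sets of Kcna1.

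Other genes of the potassium route were counted from a list that holds the cotransporters, pump subunits, gap junction and chloride channel genes that pass potassium through the lateral wall. Of its 12 measured genes 9 were detected, and 7 lacked a probe set naming them alone and were not analysed here. The cotransporter Slc12a2 of marginal cells and fibrocytes measured 11224 to 14375, the pump subunit Atp1b1 8863 to 11903 and the connexin Gjb2 8666 to 11501. Each was lowest in mouse 7 and highest in mouse 3. Kcne1, Kcnj13 and Kcnj16 were also lowest in mouse 7 by their brightest probe sets. The next probe set of Kcne1 was lowest in mouse 4 (2927), and that of Kcnj16 in mouse 8 (2830). Mouse 7 was the lowest for 7.7% of all detected genes. Summed signals of marginal cell, intermediate cell, fibrocyte, supporting cell and Schwann cell markers were also lowest in mouse 7. So were those of macrophage, neutrophil and erythroid markers. Those of neurons, hair cells, vessels, bone, muscle and the central nervous system were not. The marginal cell sum includes Slc12a2 and Atp1b1, the supporting cell sum Gjb2 and the fibrocyte sum Slc26a4. The pump subunit Atp1b3 (6650 to 9434) and the anion exchanger Slc26a4 (8516 to 11709) were lowest in mouse 7 and highest in mouse 1. The brightest probe set of Kcne1 had the same lowest and highest mice. The SD of log2 signal over all 8 mice was 0.14 for Slc12a2, 0.15 for Atp1b1, 0.14 for Gjb2 and 0.24 for Kcne1. Without mouse 1 that of Kcne1 was 0.12, and the median over all detected genes fell from 0.17 to 0.14. The SDs of the other genes named here without mouse 1 are not given. Of the other detected genes of the list, Gjb6 was lowest in mouse 1 and highest in mouse 3. Slc12a7 was lowest in mouse 4 and highest in mouse 1, and Atp1b2 was lowest in mouse 5 and highest in mouse 4. Gja1, a connexin of many cell types, was lowest in mouse 1 (1922) and highest in mouse 6 (3845). Bsnd, which encodes the chloride channel subunit barttin of marginal cells, exceeded the threshold on 6 arrays (79.3 to 235), and the proton pump genes Atp6v1b1 and Atp6v0a4 on none.

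Kcnc1 and Kcna2, channels of auditory neurons, had the largest SDs of the 24 detected members, and both were lowest in mouse 6. Kcnc1 encodes a fast voltage-gated channel that lets auditory neurons fire at high rates. It measured 302 at the lowest (mouse 6), 803 at the median and 1015 at the highest (mouse 4). Mouse 6 was 2.68 times below the median of the other mice, and the next lowest was mouse 3 at 556. Kcnc1 and Kcna2 were called detected by their brightest probe set, and not by the mean of all their probe sets. Kcna1 and Kcna2 encode channels of the low-threshold type that cluster along myelinated axons and limit repeated firing. Kcna1 measured 850.0 at the lowest (mouse 6), 1343 at the median and 1827 at the highest (mouse 4). Kcna2 measured 201 at the lowest (mouse 6), 461 at the median and 766 at the highest (mouse 4). By the brightest probe sets mice 6 and 4 were thus the lowest and the highest in all 3 genes, and the other mice lay between. Kcna1 and Kcna2, which join in 1 channel, had r = 0.87 and rho = 0.90, with an exact permutation p of 0.00365 for r and an adjusted one of 0.405. Without mouse 6 their r was 0.78, and without the 2 mice farthest from the median of Kcna1 it was 0.97.

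Auxiliary and modifying subunits of this class showed the same lowest mouse. Kcnab3, a cytoplasmic beta subunit of Kcna channels, measured 105 at the lowest (mouse 6), 198 at the median and 349 at the highest (mouse 4). Its value in mouse 6 lay just above that array's threshold of 104. Kcnab2, the main beta subunit of axonal Kcna channels, measured 71.5 in mouse 6, a median of 264.5 and at most 427 (mouse 4). It was 3.91 times below the median of the other mice and under the threshold there alone. Kcns3, a silent subunit that modifies other channels, measured 135 at the lowest (mouse 6), 169 at the median and 256 at the highest (mouse 4).

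Exactly 4 members exceeded the threshold on 7 arrays, and mouse 6 was the missing array for all 4. They were Kcnab2, the calcium-binding partner subunits Kcnip4 and Kcnip1 of Kcnd channels, and Kcnh2, a channel of slow repolarization. Kcnip4 measured 102 in mouse 6, just under its threshold, 189 at the median and 296 at the highest. Kcnip1 measured 75.0 in mouse 6, a median of 119 and at most 196.5, and Kcnh2 measured 81.9 in mouse 6, a median of 120.25 and at most 148. Of all 368 genes above the threshold on exactly 7 arrays, mouse 6 was the missing one for 32.9%. Without mouse 6 the count of detected members was 28 in place of 24, and the share of all genes 59.6% in place of 58.9%.

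Mouse 6 was the lowest mouse for 7 of the 24 detected members, against 12.1% of all detected genes. They were Kcnc1, Kcna1, Kcna2, Kcnab1, Kcnab3, Kcnk1 and Kcns3. Mouse 4 was the highest for 8 of the 24, against 10.5% of all detected genes, and mouse 1 for 7, against 34.9%. Mouse 1 was the lowest for 2 of the 24, Kcnj10 and Kcnma1, against 24.5%. Kcnd3, which carries a transient current in neurons and heart, went the other way. It measured 142 at the lowest (mouse 5), 173 at the median and 263 at the highest, which was mouse 6. Kcnk2, a tandem-pore channel that opens with membrane stretch, was also highest in mouse 6, with 846 at the lowest (mouse 3), 1020.5 at the median and 1156 at the highest.

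**Figure D3:**
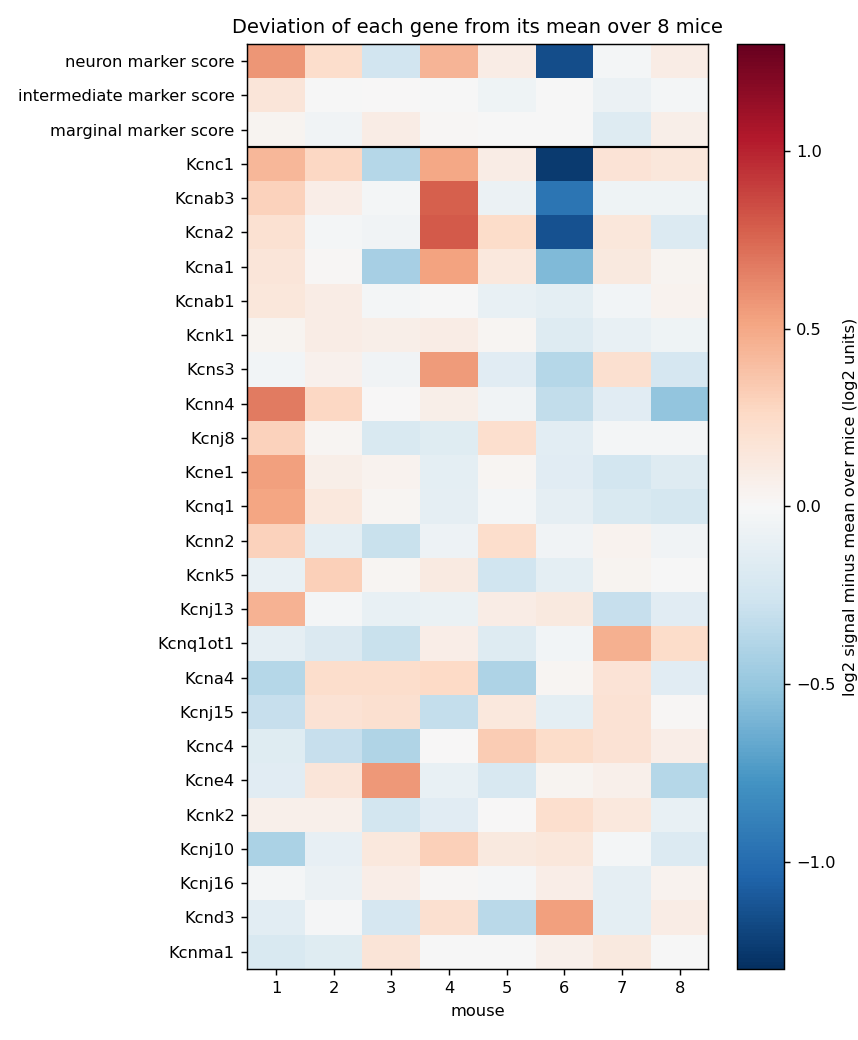
Deviation of log2 signal from each gene's mean over the 8 mice (colour scale in log2 units) for the 24 detected Kcn genes, ordered by their correlation with the neuronal score, under the scores of 3 marker lists. The dark blue cells of Kcnc1, Kcna2 and Kcnab3 in mouse 6 lie under the neuronal score of -1.16, and the red cells of Kcne1, Kcnq1, Kcnn4 and Kcnj13 lie in mouse 1.

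Neuronal marker genes that are no potassium channels were also low in mouse 6. All 19 detected ones, such as Nefl, Snap25 and Thy1, were lowest in mouse 6, at 1.5 to 3.89 times below the median of the other mice (median 2.54). Their summed signal, with the 5 undetected markers, was 17748 in mouse 6 and ranged from 29970 to 47736 elsewhere, with the highest value in mouse 1. The neuronal score was -1.16 in mouse 6, -0.25 in mouse 3 and between -0.03 and 0.57 in the others. The score of Schwann cell markers was 0.02 in mouse 6 and -0.19 to 0.17 in the others, and 1 of its 10 detected markers, Pmp22, was lowest in mouse 6. The markers behind this score differed: the median of the other mice was 0.73 to 1.23 times the value in mouse 6. The bone score was 0.57 in mouse 6, 0.58 in mouse 3, 0.50 in mouse 5 and at most -0.16 in the other mice. The summed signal of 13 markers of the central nervous system was 11805 in mouse 6, 11364 in mouse 1 and 6957 to 8278 in the others. The part of these cell types in the channel values was not tested.

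Against the neuronal score, Kcnc1 had the highest correlation of the 24 members. Its r was 0.98 and rho 0.88, with an exact permutation p of 0.000446 for r and 0.00724 for rho (two-sided). The exact permutation p adjusted over 10642 genes was 0.103 and did not pass. It was 0.91 without mouse 6, 0.99 without mouse 1 and 0.94 without the 2 mice farthest from the median score. Kcnab3 had r = 0.91 (adjusted exact permutation p = 0.269), Kcna2 r = 0.88 (adjusted exact permutation p = 0.434) and Kcna1 r = 0.85 (adjusted exact permutation p = 0.314). Their rho was 0.74, 0.74 and 0.81. Without mouse 6 r was 0.71, 0.54 and 0.75, and without the 2 mice farthest from the median score it was 0.76, 0.66 and 0.88. Kcnd3 had r = -0.55, which turned to 0.42 without mouse 6, so its sign rested on that mouse.

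Of the 24 members 6 had an unadjusted exact permutation p below 0.05 against the neuronal score, and 0 passed after adjustment over all genes. Of all genes 7.88% had such an unadjusted p and 0.15% passed. The other 2 of the 6 were Kcnab1 (r = 0.72) and Kcnk1 (r = 0.71), and without the 2 mice farthest from the median score they had r of 0.31 and 0.34. Across 8 scores in all, 0 members passed with any score, whether by Pearson's r or by Spearman's rho. Members with an unadjusted exact permutation p below 0.05 numbered 4 for intermediate cells, 2 for bone, 1 each for marginal cells, hair cells, Schwann cells and vessels, and 0 for fibrocytes. The share of all genes with such a p was 12.9%, 5.5%, 4.34%, 2.18%, 1.97%, 16.3% and 8.06% in the same order.

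**Figure D4:**
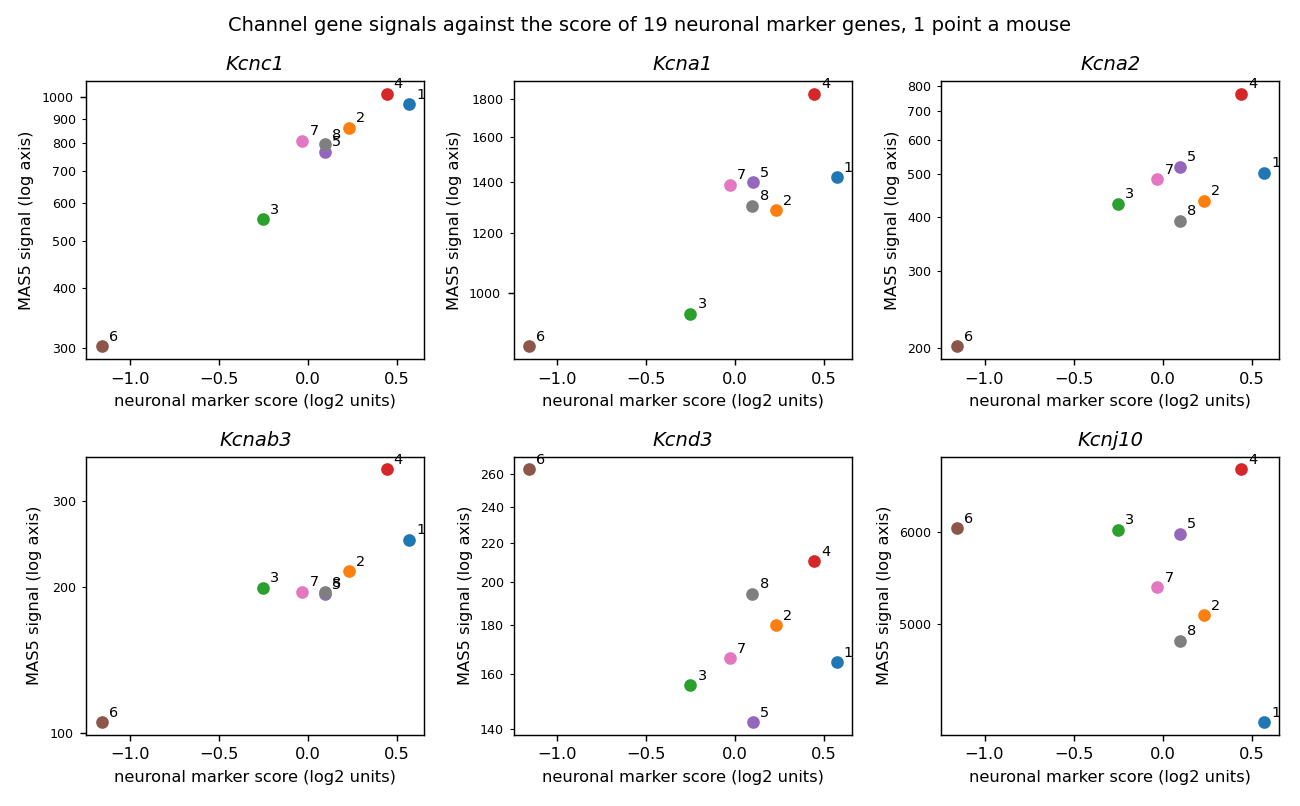
MAS5 signal (vertical, log axis, arbitrary units) of 6 channel genes against the score of 19 neuronal markers (horizontal, log2 units), 1 numbered point a mouse. Kcnc1 follows the score through all mice (r = 0.98), Kcna1, Kcna2 and Kcnab3 follow it less closely, Kcnd3 is highest in mouse 6, and Kcnj10 is lowest in mouse 1.

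Of the hair cell list Kcnma1, Kcnn2 and Kcnab1 were detected. Kcnma1, the large-conductance calcium-activated channel that gives inner hair cells their fast current, measured 862 at the lowest (mouse 1), 987 at the median and 1111 at the highest (mouse 3). Kcnn2, the small-conductance channel that follows the efferent receptor of outer hair cells, measured 1013 at the lowest (mouse 3), 1196 at the median and 1515.5 at the highest (mouse 1). Kcnab1, a beta subunit, measured 1055 at the lowest (mouse 6), 1135 at the median and 1276 at the highest (mouse 1). Their SDs of log2 signal were 0.13, 0.19 and 0.09, against a median of 0.17 over all detected genes. With the mean of all probe sets the SD of Kcnab1 was 0.37, and Kcnma1 was not detected. All 3 genes are also expressed in neurons or muscle, and only 9 of 17 hair cell markers were detected. The beta subunits of Kcnma1 were at background: Kcnmb2 exceeded the threshold on 1 array (57.0 to 99.3), and Kcnmb1 and Kcnmb4 on none, as did the inward rectifier Kcnj2. Kcnk5, an acid-sensitive tandem-pore channel, had r = 0.90 with the hair cell score at 301 to 448, with an unadjusted exact permutation p of 0.00419 and an adjusted one of 1.0. Without the 2 mice farthest from the median score r was 0.59.

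Among channels of vessels, blood cells and other tissues, Kcnn4 stood out by its spread. This calcium-activated channel of red and white blood cells and secretory epithelia measured 596 at the lowest (mouse 8), 838 at the median and 1351 at the highest (mouse 1). Its highest mouse was that of Kcnq1 and Kcne1. The summed signal of erythroid markers was 2138 in mouse 1 and 1342 to 12024 in all mice, and that of neutrophil markers was 6807 in mouse 1 and 1928 to 29479 in all mice. That of 13 macrophage markers was 8892 in mouse 1 and 7479 to 11003 in all mice, with the highest value in mouse 5. Of these markers only Csf1r and Aif1 were highest in mouse 1, and Mrc1 was lowest there (476). The part of blood cells in the values of Kcnn4 was not tested. Kcna3, a channel of T cells and macrophages, was below the threshold on all arrays. Kcnj8, the pore of the vascular channel that senses ATP, measured 232 at the lowest (mouse 3), 261 at the median and 327 at the highest (mouse 1). Its partner, the sulfonylurea receptor Abcc9, measured 223.5 to 286, and the 2 genes did not pass the partner test, with r = 0.05 and an adjusted exact permutation p of 0.943. The other pore of this type, Kcnj11, was below the threshold on all arrays, and the receptor Abcc8 exceeded it on 3.

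Kcne4, an auxiliary subunit that inhibits Kcnq1 channels, measured 158 at the lowest (mouse 8), 199.85 at the median and 302 at the highest (mouse 3). Kcnc4, a channel of fast repolarization found in muscle and neurons, measured 154 at the lowest (mouse 3), 209 at the median and 255 at the highest (mouse 5). Mouse 5 was also the mouse with the most muscle signal, where the summed signal of 13 muscle markers was 16054 against 1004 to 2462 in the others. Mouse 6, the next highest for Kcnc4 at 238, had the lowest of these sums. Kcnk3, an acid-sensitive tandem-pore channel, exceeded the threshold on 2 arrays and was highest in mouse 5 as well (176, against 67.7 to 103 in the others). That held for its brightest probe set only. The next one, above the threshold on 1 array, measured 69.2 in mouse 5 and was highest in mouse 3 (96.5). The part of muscle in the values of Kcnc4 and Kcnk3 was not tested. Kcna4, a channel of transient currents, measured 265 at the lowest (mouse 5), 375 at the median and 417 at the highest (mouse 4), with mice 5 and 1 apart at the low end.

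Separate probe sets gave a check of the variation between mice. Of 7 members with 2 detected probe sets, 1 passed the test of agreement, against 9.03% of 4298 genes on the array. It was Kcna1, whose 2 brightest probe sets correlated at r = 0.98 and rho = 0.90, with an exact permutation p of 0.000174 and an adjusted exact permutation p of 0.0160. Its next probe set measured 522 in mouse 6, 785 at the median and 1019.5 in mouse 4, so the lowest and highest mice were the same on both. A further probe set of Kcna1 was also lowest in mouse 6 (214) and was highest in mouse 7 (376). Without mouse 6 their r was 0.98. By rank correlation the agreement of Kcna1 did not pass.

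The probe sets of Kcnn4 (r = 0.85, adjusted exact permutation p = 0.0650), Kcne1 (r = 0.86, adjusted exact permutation p = 0.111) and Kcna2 (r = 0.73, adjusted exact permutation p = 0.168) did not pass. Those of Kcne1 shared mouse 1 as the highest, at 4906.5 and 3886, and r was 0.43 without it. Those of Kcna2 shared mouse 6 as the lowest, at 201 and 269, and r was 0.30 without it. The highest mouse of Kcna2 differed between them, mouse 4 at 766 and mouse 1 at 523. Those of Kcnk1, Kcnj16 and Kcnq1ot1 did not pass, with r of 0.47, -0.21 and 0.14. Both probe sets of Kcnk1 were lowest in mouse 6, at 5418 and 683. Kcnc1 had 4 probe sets and Kcnma1 5, of which 1 each was detected, so the test was not run for them. The next brightest of Kcnc1, above the threshold on 6 arrays, was lowest in mouse 6 (48.3) and highest in mouse 2 (108). That of Kcnma1, above it on 7, was lowest in mouse 6 (95.2) and highest in mouse 4 (155). Its brightest probe set was lowest in mouse 1 and highest in mouse 3.

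The median SD of the 24 detected members was 0.24 on the log2 scale, against 0.17 over all 10657 detected genes, and 5 members exceeded 0.3, against 12% of those genes. The 5 were Kcnc1 (0.57), Kcna2 (0.54), Kcnab3 (0.48), Kcnn4 (0.36) and Kcna1 (0.35). Without mouse 6 the SD of Kcnc1 was 0.28, that of Kcna2 0.32 and that of Kcnab3 0.31. Without mouse 1 the SD of Kcne1 fell from 0.24 to 0.12, that of Kcnq1 from 0.24 to 0.13, and the medians to 0.19 for the members and 0.14 for all detected genes.

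Members below the threshold on all arrays had medians from 2.25 (Kcnk4) to 63.05 (Kcnip2). In the spiral ganglion list they were Kcna6, Kcnd2, Kcnh7, Kcnt1 and Kcnt2, and in the list of vessels and other tissues Kcna3, Kcne2, Kcnj11, Kcnk6 and Kcnn3. The M-current subunits Kcnq3 and Kcnq5, which damp neuronal firing, exceeded the threshold on 4 arrays each, at 68.5 to 112.5 and 48.5 to 118. Kcnc2, a close relative of Kcnc1, exceeded it on 6 arrays, at 85.2 to 149, and Kcne3, an auxiliary subunit, on 3, at 38.6 to 128. Kcna5 did so on 2 arrays and Kcnj5 and Kcns1 on 1 each. A signal below the threshold here shows that the gene was not detectable by that probe set in whole soft tissue, not that it is absent from a rare cell type. Of the 3 noncoding members only Kcnq1ot1, the long RNA read from within the Kcnq1 gene on the opposite strand, was detected. It measured 356 at the lowest (mouse 3), 413 at the median and 601 at the highest (mouse 7). By this brightest probe set, the top mouse of Kcnq1ot1 was not that of Kcnq1. Its dimmer probe sets above the threshold on all arrays differed. The next one peaked at 338, in mouse 4. A further one peaked at 184 in mouse 1, the top mouse of Kcnq1, against 95.6 to 127 elsewhere.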

How the data were processed

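RNA of the 8 samples was amplified with Ovation kits, labelled with biotin and hybridised to Affymetrix arrays, per the labels' protocols. Each deposited value is an intensity on a linear scale, the MAS5 signal of 1 probe set, per the submitters' processing notes. The MAS5 version used was not stated in the sources read. From the values, the authors had scaled the arrays to 1 level: the mean deposited intensity without the lowest and highest 2% was 500.0 on all 8. The file held 0 other sample columns.

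Of 45101 probe sets 932 named several genes and 9211 none, and these were not used. A gene was read by its brightest probe set as log2 signal (signals under 1 set to 1). Named were the genes of 4 lists by site, the 10 detected members with the largest SD and those passing a test; a few further genes were picked once their values were known. The members and lists were chosen with earlier results of these data known. Of 107 background genes 4 were themselves detected. Correlations over mice were tested exactly over all 40320 pairings, two-sided, and adjusted by Benjamini-Hochberg over all detected genes within a score, over all detected genes paired with the first gene, or over all genes with 2 detected probe sets, with a threshold of 0.05. The tests were checked on simulated data. The p-values take mice as units and include differences of the assay. Alternatives covered normalization, log offset, probe set choice, background, rank correlation and leaving out mice. The software was Python 3.11.15 with scipy 1.17.1, pandas 2.3.3, numpy 2.4.6 and matplotlib 3.10.9. Promoters are from RefSeq.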

Additional observations from a re-analysis of the deposited data

Results flagged for a closer look

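In 3 members 1 mouse lay far from the others, judged by the gap to its neighbour as a share of the whole range of log2 signals (a share above 0.526 for 8 mice). The 24 detected members and the 13 above background on some arrays were examined. For Kcnab2 the share was 0.661, from mouse 6 at 71.5 against 233 to 427 in the other mice. For Kcne1 it was 0.593, from mouse 1 at 4906.5 against 2863 to 3565. For Kcnk3 it was 0.562, from mouse 5 at 176 against 67.7 to 103, with a threshold of 93.6 on that array. The next probe set of Kcnk3 measured 69.2 in mouse 5 and was highest in mouse 3 (96.5). Chance alone gives about 1 such group in 20. Of the 24 detected members only Kcne1 met the mark, against 12.7% of all detected genes. Kcnab2 and Kcnk3 were above background on some arrays only, and no share over all such genes was computed.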

How the results depend on the processing

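The number of detected members was 24 and depended on the background and on how probe sets were combined. It was 14 with the mean of all probe sets of a gene, 37 with the 90th percentile of background and 15 with the 99th, when 49.1%, 66.8% and 43.4% of all genes were detected. Kcnc1, Kcna2, Kcnab3, Kcnd3, Kcns3, Kcnc4 and Kcnj15 were lost both with the mean of probe sets and at the 99th percentile, and Kcnma1, Kcna4 and Kcnk5 with the mean alone. Alternatives chosen after seeing the data gave 34 members without Apoa4, Slc22a6 and Prm1 in the background (65.6% of all genes) and 28 without mice 1 and 6 (59.9%). Leaving out 1 mouse at a time gave 24 to 28. The 1 member whose probe sets agreed became 2 with detection on at least 4 arrays, 0 by Spearman's rho, 0 without mice 1 and 6, and 0 to 1 leaving out 1 mouse at a time (0 without mouse 1, 2 or 6). With fewer mice there are fewer pairings and so fewer calls can pass. The number of members passing with a marker score was 0 in all 160 alternatives, and no partner pair passed in any of 59. Even with 8 mice the pairings limit how small p can be, so not passing does not show that a relation is absent. The median SD of the detected members stayed within the spread in all 18, and was 0.19 to 0.26 leaving out 1 mouse at a time. The SD of Kcnj16 was 0.05 after quantile normalization and 0.12 after scaling to the median of detected genes, and that of Kcnab1 was 0.37 with the mean of probe sets. No paired analysis was possible because the 8 mice form 1 group. Signal near background limits Kcnab3, Kcns3, Kcnj15 and Kcnip4, among others.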

Other observations

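Among the 276 pairs of detected members, 14 had r above 0.8 over the 8 mice and 2 had r below -0.8, with a median of -0.01. These values are descriptions, since the members share the same 8 arrays. The share over all pairs of detected genes was not computed, so the counts cannot be set against a background. Besides the pairs described above, Kcnn2 and Kcnj8 moved together (r = 0.89), both highest in mouse 1 and lowest in mouse 3. Kcnq1 and Kcnn4 did so too (r = 0.92), both highest in mouse 1 and lowest in mouse 8. Of all detected genes 34.9% were highest in mouse 1, and r without that mouse was not computed for these pairs. Kcna4 ran against Kcnj8 and against Kcnn2 (r = -0.83 for each). Kcnk2 had r = 0.88 with the score of vessel markers, with an unadjusted exact permutation p of 0.00568 and an adjusted one of 0.265, and r = 0.74 without the 2 mice farthest from the median score. Kcnj16 had r = 0.81 with the score of marginal cell markers, with an unadjusted exact permutation p of 0.0114 and an adjusted one of 0.695, and r = 0.45 without those 2 mice for this score.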
